A study of Mus musculus with 36 samples.

Results

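Matrix metalloproteinases (MMPs), the tissue inhibitors of metalloproteinases (TIMPs), the ADAMTS and ADAMTS-like proteins and the lysyl oxidases were followed in liver and in epididymal white adipose tissue (eWAT), a visceral fat depot, of male mice on 3 diets. The genes were taken by symbol from the mouse annotation: the protein-coding genes named Mmp or Timp followed by a number, every Adamts and Adamtsl gene, and Lox with Loxl1 to Loxl4, 54 genes in all. Of these, 45 were measured in at least one tissue: 44 among the 16690 genes of eWAT, 31 among the 14052 genes of liver, and 30 in both. The other 9 (Adamts18, Mmp1b, Mmp7, Mmp8, Mmp10, Mmp16, Mmp20, Mmp21 and Mmp24) were not analysed here.

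All mice were wild-type C57BL/6 males of the F0 generation that ate chow until 6 weeks of age and gave tissue at 24 weeks. The HF mice then received high-fat food for 18 weeks. The HFLF mice received it for 9 weeks and low-fat food for the 9 weeks after that. The LF mice received low-fat food for all 18 weeks. Each diet had 6 RNA-seq libraries per tissue, 36 in all, with 8.942 to 31.19 M counts in eWAT and 11.66 to 23.3 M counts in liver (M, mega). The labels number the libraries 1 to 6 within a diet and do not say what a number marks or whether each library is 1 animal, so the tests measure the spread between these libraries.

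Levels are given as CPM (a gene's counts per M counts of its library) scaled with edgeR's TMM factors, which adjust for differences in library composition. Levels are compared between genes only as CPM per kilobase of exon. A gene was called when edgeR's quasi-likelihood test gave a Benjamini-Hochberg adjusted p under 0.05 over every gene of the tissue's table. Fold changes are log2 values ± SE from the same fit, and a positive value means higher in the group named first.

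The extracellular matrix is held in balance by these families. MMPs are zinc proteases that cut collagens, gelatin, laminins and other matrix proteins outside the cell, and most are made as inactive precursors that other proteases switch on. TIMPs bind active MMPs and block them, and TIMP3 also blocks several ADAM and ADAMTS enzymes. Some ADAMTS enzymes cut proteoglycans, others remove the amino-terminal propeptide of procollagen, and the ADAMTS-like proteins carry the matrix-binding modules without the protease. Lysyl oxidases are copper enzymes that oxidise lysines in collagen and elastin, the step from which crosslinks form. In adipose tissue this machinery is active while fat cells enlarge and blood vessels grow.

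The tissues carried the markers of their labels. Alb, the main plasma protein made by hepatocytes, averaged 58810, 58740 and 68400 CPM in HF, HFLF and LF livers and 33.5, 49.6 and 207 CPM in the matching eWAT groups. Adipoq, the adipocyte hormone adiponectin, averaged 1808, 3470 and 3200 CPM in HF, HFLF and LF eWAT. Some libraries stood apart within their group. In liver, of 5 neutrophil markers 1 was measured, with 9.31, 6.26, 4.27 and 5.72 CPM in the first 4 LF libraries, but only 0.753 and 0.112 CPM in LF libraries 5 and 6. In eWAT, the epididymal marker Crisp1 reached 218 CPM in LF library 3 and at most 7.05 CPM in every other library, and the 5 smooth muscle and pericyte markers summed to 4150 CPM in that library against at most 901 CPM in the others. Calls that ended without LF libraries 1 to 4 in liver are given below with the value left, and so are calls that ended without 6 eWAT libraries that earlier work on these data set apart (HF library 1, HFLF libraries 4 and 6, and LF libraries 3 to 5). Such runs keep only LF libraries 5 and 6 in liver and LF libraries 1, 2 and 6 in eWAT. A call can also end because the groups are smaller, and that part was not tested.

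On the low-fat diet the 2 tissues held these genes at different levels. Per kilobase of exon, 27 of the 30 genes measured in both tissues had a higher mean in LF eWAT than in LF liver, and 3 had a lower mean. The tables of the tissues were scaled separately, so these levels are described without a test. The share over all genes measured in both tissues is not given here, so the count is not read as particular to these genes. In LF eWAT the inhibitors led: Timp2 averaged 134 ± 13.3, Timp4 76.6 ± 23.4 and Timp3 34.7 ± 2.59 CPM per kilobase (SD, n = 6 each). Loxl1 followed at 31.3 ± 5.28, Mmp2 at 20.0 ± 5 and Adamts1 at 19.6 ± 10.5 CPM per kilobase. Timp3 and Loxl1 did not differ beyond their spread, nor did Mmp2 and Adamts1, while Timp2 lay clear of the rest. In LF liver, proteases led instead: Mmp15 averaged 13.3 ± 2.56, Mmp19 12.2 ± 1.39 and Mmp14 8.78 ± 1.49 CPM per kilobase, followed by Timp2 at 4.36 ± 1.92 CPM per kilobase. Mmp15 and Mmp19 did not differ beyond their spread.

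In eWAT most of the measured genes differed between HF and LF mice. Of 44 genes, 24 were higher in HF and 8 lower, 72.7% of those measured, against 40.8% of all 16690 genes (20.6% higher and 20.2% lower). The median log2 change of the 44 genes was 0.60, against -0.02 for all genes. The groups did not overlap for 10 of the higher genes and 1 of the lower, where 15.8% of all genes did not overlap. TIMPs and MMPs split within each family, and the lysyl oxidases were higher as a group. In whole tissue, a different number of the cells that make a transcript and a different amount per cell cannot be told apart. Mmp13, Adamts17 and Adamts20 reached the authors' level filter (0.5 CPM in 6 libraries) with fewer than 6 libraries outside their highest diet, so their presence among the measured genes already depends on a diet difference.

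Among the inhibitors, Timp1, the TIMP that inflammatory signals are known to raise, had 22.5, 19.1, 125, 40.5, 7.51 and 10.1 CPM in HF libraries 1 to 6, against 1.88, 1.91, 2.48, 3.06, 2.78 and 0.845 CPM in LF libraries 1 to 6. Every HF library lay above every LF library, and HF library 3 was far above the rest. The log2 change was 4.12 ± 0.65 (edgeR adjusted p = 0.000156), a 17.4-fold difference. Timp4, a TIMP known from fat and heart, went the other way: it had 129, 339, 49.2, 64.9, 405 and 207 CPM in HF libraries 1 to 6, against 615, 540, 309, 260, 484 and 501 CPM in LF libraries 1 to 6. HF libraries 1, 3, 4 and 6 fell below every LF library, and HF libraries 2 and 5 lay among them. The log2 change of -1.18 ± 0.41 passed (edgeR adjusted p = 0.0291); the call ended without LF library 1 (-1.08), HF library 1 (-1.08) or HF library 4 (-1), and without the 6 libraries set apart (-1.38, edgeR adjusted p = 0.0736).

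The other inhibitors moved less. Timp2, which also takes part in the activation of pro-MMP2 on the cell surface, had 788, 677, 949, 975, 482 and 502 CPM in HF libraries 1 to 6, against 590, 472, 523, 485, 577 and 478 CPM in LF libraries 1 to 6. HF libraries 1 to 4 lay above every LF library and libraries 5 and 6 within their range. The log2 change of 0.48 ± 0.17 passed (edgeR adjusted p = 0.0335), but not without any of LF libraries 2, 3, 4 and 6 or HF libraries 1, 3 and 4 (0.38 to 0.51). Timp3, bound to the matrix and the broadest inhibitor of the family, had 149, 226, 143, 184, 316 and 250 CPM in HF libraries 1 to 6, against 308, 292, 301, 259, 281 and 258 CPM in LF libraries 1 to 6. Its log2 value of -0.42 ± 0.17 did not pass (edgeR adjusted p = 0.0507), though it passed without HF library 5 (-0.57) or HF library 6 (-0.48) and in DESeq2. Exons of Timp3 overlap those of Syn3 on the other strand over 21.3% of their length, and no source used here gives the strand of counting.

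**Figure D1:**
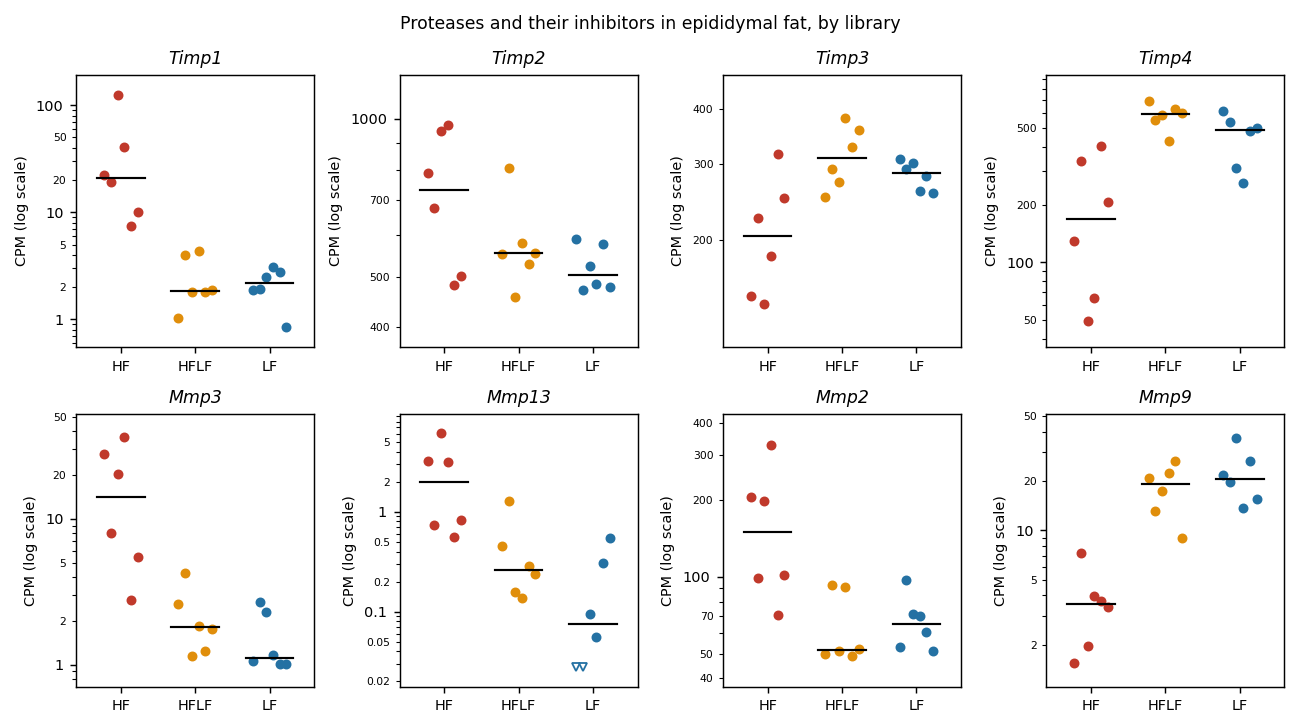
CPM on log scales for 4 TIMPs (top) and 4 MMPs (bottom) in eWAT, by diet; each point is 1 of 6 libraries (replicates 1 to 6 from left to right within a diet), bars are medians, and open triangles mark libraries with no count. Timp1 and Mmp3 lie between 2.79 and 125 CPM in every HF library and at or below 3.06 CPM in every LF library, while Timp4 and Mmp9 have lower medians in HF.

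The promoters of Timp1 and Timp4, the TIMPs with the largest changes in each direction, and of Mmp3 and Mmp13, the MMPs with the largest rises, are shown so that their letters can be compared. They were chosen after the values were seen. The sequences are from RefSeq (GRCm38.p6), 250 bases before to 50 after the annotated start, 5′ to 3′ on the gene's own strand. Capitals mark the letters TGANTCA, the core of the sites that AP-1 (Fos and Jun) binds, which reads the same on both strands.
Timp1 (chrX:20869916-20870215, plus strand): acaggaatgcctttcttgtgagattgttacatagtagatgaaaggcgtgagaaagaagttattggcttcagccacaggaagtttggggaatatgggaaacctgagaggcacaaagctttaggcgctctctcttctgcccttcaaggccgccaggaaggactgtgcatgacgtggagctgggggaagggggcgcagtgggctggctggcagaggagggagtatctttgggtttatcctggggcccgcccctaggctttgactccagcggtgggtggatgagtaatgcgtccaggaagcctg
Mmp3 (chr9:7445572-7445871, plus strand): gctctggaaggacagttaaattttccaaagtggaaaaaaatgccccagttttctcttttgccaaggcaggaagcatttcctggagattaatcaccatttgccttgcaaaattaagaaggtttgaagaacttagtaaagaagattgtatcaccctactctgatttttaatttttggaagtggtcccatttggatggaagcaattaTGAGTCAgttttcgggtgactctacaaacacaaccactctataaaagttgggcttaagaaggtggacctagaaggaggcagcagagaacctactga
Mmp13 (chr9:7272264-7272563, plus strand): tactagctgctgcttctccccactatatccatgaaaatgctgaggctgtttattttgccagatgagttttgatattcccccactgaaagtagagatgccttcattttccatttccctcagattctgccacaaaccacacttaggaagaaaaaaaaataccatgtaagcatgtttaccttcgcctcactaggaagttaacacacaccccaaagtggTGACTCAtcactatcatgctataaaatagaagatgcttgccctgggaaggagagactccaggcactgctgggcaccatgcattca
Timp4 (chr6:115252156-115252455, minus strand): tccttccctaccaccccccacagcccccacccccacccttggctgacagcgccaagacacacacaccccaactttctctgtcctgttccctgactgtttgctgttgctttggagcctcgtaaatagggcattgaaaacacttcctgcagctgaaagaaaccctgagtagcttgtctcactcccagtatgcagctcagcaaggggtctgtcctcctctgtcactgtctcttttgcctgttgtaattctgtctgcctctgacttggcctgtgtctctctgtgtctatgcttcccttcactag
Mmp3 and Mmp13 each held the motif 1 time, starting at position -46 in Mmp3 and -35 in Mmp13, counted from the annotated start. The windows of Timp1 and Timp4 did not hold exactly these letters. Only exact matches were sought, so near matches, such as tgagtaa in the Timp1 window, were not marked. The lack of capitals therefore does not show that AP-1 cannot bind there. Of all 32851 RefSeq promoters of this length, 7.81% held the motif, and of the 37 promoters listed for 35 of the 54 genes, 6 did (16.2%).

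Among the MMPs, the stromelysin Mmp3 and the collagenase Mmp13, both secreted proteases named here after their values were seen, had the largest log2 changes. Mmp3 had 27.8, 8.04, 20.4, 36.5, 2.79 and 5.43 CPM in HF libraries 1 to 6, against 1.06, 2.68, 2.29, 1.17, 1.02 and 1.01 CPM in LF libraries 1 to 6. The lowest HF library lay just above the highest LF library, and the change was 3.47 ± 0.58 (edgeR adjusted p = 0.000246). Mmp13 was scarce, at 0.558 to 6.08 CPM in HF against at most 0.541 CPM in LF, with no count in LF libraries 1 and 2. Its log2 change of 3.63 ± 0.84 (edgeR adjusted p = 0.0027) stood at 3.29 without the 6 libraries set apart, where it did not pass (edgeR adjusted p = 0.0511). Mmp13 and Mmp3 lie in the MMP cluster of chromosome 9, which also holds Mmp27, a little studied member. Mmp27 had medians of 1.10 CPM in HF and 0.691 CPM in LF.

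The gelatinases went in opposite directions. Mmp2, made mainly by fibroblasts and other stromal cells, had 204, 98.6, 198, 329, 70.9 and 101 CPM in HF libraries 1 to 6, against 53.0, 97.0, 71.3, 70.5, 60.6 and 51.0 CPM in LF libraries 1 to 6. All HF libraries but library 5 lay above every LF library. The change was 1.31 ± 0.32 (edgeR adjusted p = 0.00402), and without the 6 libraries set apart it was 1.26 and did not pass (edgeR adjusted p = 0.0692). Mmp9, the gelatinase known from neutrophils and macrophages, had 1.56, 7.30, 1.97, 3.97, 3.71 and 3.38 CPM in HF libraries 1 to 6, against 21.6, 19.6, 36.6, 13.7, 26.5 and 15.5 CPM in LF libraries 1 to 6. Every HF library lay below every LF library (-2.61 ± 0.36, edgeR adjusted p = 7.49e-05). The 2 neutrophil markers measured of 5 summed to 3.30 to 19.3 CPM in HF and to 1.55 to 9.43 CPM in LF. Of these, 1 was called higher in HF and the other lower. Their part in the result was not tested.

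Membrane and other MMPs followed the same split. Mmp14, the membrane-anchored enzyme that activates pro-MMP2, had 190, 108, 213, 250, 83.4 and 94.3 CPM in HF libraries 1 to 6, against 91.8, 96.1, 94.4, 103, 94.2 and 57.4 CPM in LF libraries 1 to 6. HF libraries 1 to 4 lay above every LF library and libraries 5 and 6 did not. Its change of 0.81 ± 0.25 passed (edgeR adjusted p = 0.0167), though not when HF library 4 was left out (0.62), nor without the 6 libraries set apart (0.88, edgeR adjusted p = 0.0908). Mmp19 rose (1.33 ± 0.29, edgeR adjusted p = 0.00171), with 57.1 to 272 CPM and a median of 99.2 CPM in HF against 40.2 to 64.2 CPM and a median of 46.6 CPM in LF. Mmp11, a stromelysin known from the stroma around tumours, rose (0.95 ± 0.22, edgeR adjusted p = 0.00261) with no overlap, at 23.4 to 51.0 CPM in HF against 12.2 to 22.7 CPM in LF; without the 6 libraries set apart it stood at 0.88 and did not pass (edgeR adjusted p = 0.0637). Mmp17, anchored to the membrane by a lipid, was called lower (-1.20 ± 0.40, edgeR adjusted p = 0.0245), with 2.43, 3.25, 4.00, 2.67, 3.30 and 4.27 CPM in HF libraries 1 to 6 against 3.58, 5.06, 22.8, 5.57, 2.91 and 5.98 CPM in LF libraries 1 to 6. LF library 3, the one with Crisp1 and high smooth muscle markers, was far above each other library, and without it (-0.46) or without HF library 4 (-1.14) Mmp17 did not pass. Mmp15, Mmp23, Mmp25 and Mmp28 did not pass, with group medians between 0.762 CPM (Mmp25 in LF) and 81.1 CPM (Mmp28 in HFLF).

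All 5 lysyl oxidases rose in HF eWAT. Lox, which acts on fibrillar collagen and elastin, had 125, 99.6, 189, 196, 81.6 and 131 CPM in HF libraries 1 to 6, against 43.5, 46.6, 39.1, 35.6, 70.9 and 50.4 CPM in LF libraries 1 to 6. The groups did not overlap (1.52 ± 0.20, edgeR adjusted p = 6.3e-05). Loxl1, known for its part in elastic fibre upkeep, had 191, 213, 351, 249, 143 and 177 CPM in HF libraries 1 to 6, against 116, 113, 95.8, 82.4, 125 and 85.9 CPM in LF libraries 1 to 6, again with no overlap (1.10 ± 0.18, edgeR adjusted p = 0.000246). Loxl2, which also crosslinks collagen IV of basement membranes, had 48.2 to 132 CPM in HF against 24.9 to 42.9 CPM in LF (1.17 ± 0.22, edgeR adjusted p = 0.000538). Loxl3 had 28.0, 19.1, 33.4, 27.1, 16.8 and 19.6 CPM in HF libraries 1 to 6, against 12.2, 10.8, 14.6, 11.8, 13.7 and 12.3 CPM in LF libraries 1 to 6, without overlap (0.94 ± 0.15, edgeR adjusted p = 0.000193). Loxl4 had 6.04 to 8.32 CPM in HF against 2.5 to 6.93 CPM in LF, where LF library 5 reached into the HF range (0.84 ± 0.23, edgeR adjusted p = 0.00715). No call of the 5 ended in any of the alternatives run, leaving out each library in turn included. Exons of Loxl3 overlap those of Htra2 over 11.6% of their length.

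**Figure D2:**
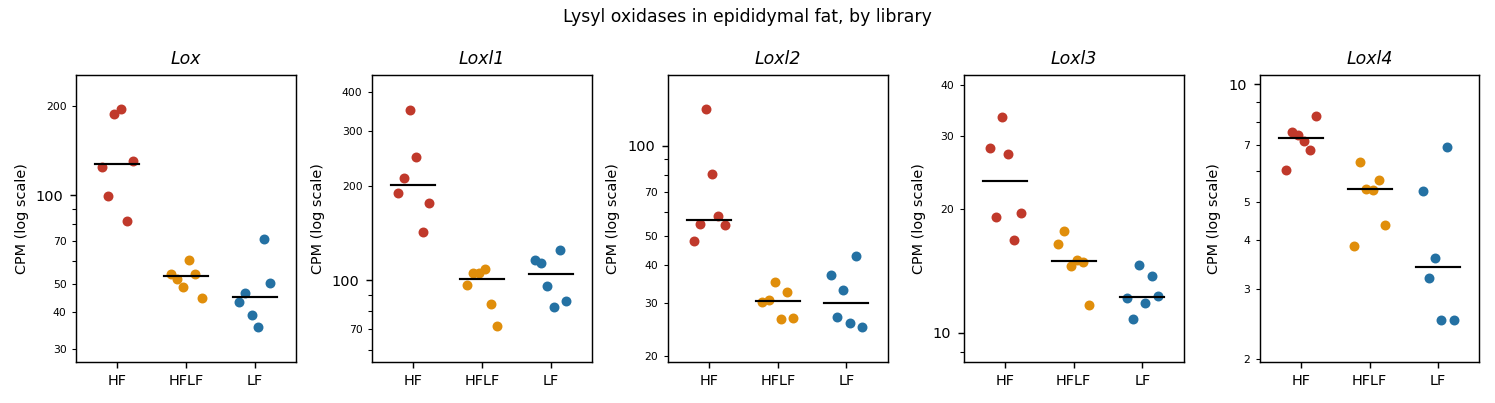
CPM on log scales for the 5 lysyl oxidases in eWAT, by diet; points are the 6 libraries of a diet and bars their medians. Lox, Loxl1, Loxl2 and Loxl3 show HF libraries that all lie above all LF libraries, and Loxl4 shows 1 LF library, at 6.93 CPM, within the HF range.

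The ADAMTS family also split. Of the 3 that remove the procollagen propeptide, Adamts2 rose (0.77 ± 0.14, edgeR adjusted p = 0.000514; 225 to 349 CPM in HF against 123 to 242 CPM in LF) and Adamts14 rose with no overlap (0.83 ± 0.20, edgeR adjusted p = 0.00354; 14 to 27.7 CPM in HF against 7.10 to 13.4 CPM in LF), while Adamts3 did not pass. Adamts7, known from vascular smooth muscle and cartilage, had 19.2, 14.6, 16.8, 20.9, 19.8 and 22.6 CPM in HF libraries 1 to 6, against 10.6, 6.59, 10.5, 7.79, 11.7 and 13.3 CPM in LF libraries 1 to 6. Its groups did not overlap, with the lowest HF library at 14.6 CPM and the highest LF library at 13.3 CPM (0.91 ± 0.15, edgeR adjusted p = 0.000186). Adamts16 rose at a low level (1.53 ± 0.41, edgeR adjusted p = 0.00741), with 2.39 to 5.99 CPM in HF against 0.306 to 2.87 CPM in LF, and stood at 1.29 without the 6 libraries set apart, where it did not pass (edgeR adjusted p = 0.0749). Adamtsl2, which binds latent TGF-beta binding protein in microfibrils, rose (1.61 ± 0.45, edgeR adjusted p = 0.00945), with medians of 17.5 CPM in HF and 4.80 CPM in LF.

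Of the proteoglycan-cutting enzymes, Adamts1 was lower (-1 ± 0.25, edgeR adjusted p = 0.00512). It had 47.3, 60.8, 47.2, 44.5, 53.7 and 59.3 CPM in HF libraries 1 to 6, against 113, 211, 80.5, 82.0, 56.0 and 81.7 CPM in LF libraries 1 to 6. LF library 2 was far above the rest and LF library 5 lay within the HF range, and without LF library 2 the change was -0.65 and still passed. Its neighbour on chromosome 16, Adamts5, 53.1 kb away on the same strand and a major aggrecanase, went the other way, at 204 to 435 CPM in HF against 91.7 to 294 CPM in LF. Adamts15 and Adamts8, 20.1 kb apart on opposite strands of chromosome 9, also had opposite signs.

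A further set of calls in HF against LF ended when 1 library was left out, and is given here by its size and those libraries. Adamts5 (0.70 ± 0.26, edgeR adjusted p = 0.0367) did not pass without LF libraries 3 or 4 or HF libraries 2, 5 or 6 (0.55 to 0.69). Adamts15 (0.67 ± 0.24, edgeR adjusted p = 0.0334) did not pass without LF libraries 1, 2, 3 or 6 or HF libraries 1, 3 or 4 (0.54 to 0.70). Adamtsl5 (0.53 ± 0.20, edgeR adjusted p = 0.0431) did not pass without LF libraries 2, 3, 4 or 6 or HF libraries 1, 3 or 4 (0.33 to 0.56), and Mmp27 (0.98 ± 0.37, edgeR adjusted p = 0.0443) without LF libraries 3, 4, 5 or 6 or HF libraries 1, 2 or 4 (0.76 to 1.02). Adamtsl3 (0.51 ± 0.17, edgeR adjusted p = 0.0252) needed LF library 4 and HF library 4 (0.44 without either), and Adamts17 (1.42 ± 0.47, edgeR adjusted p = 0.0224) needed HF libraries 1 and 6 (1.19 and 1.25). On the lower side, Adamts9 (-0.54 ± 0.19, edgeR adjusted p = 0.0335) did not pass without LF libraries 1 or 2 or HF libraries 1, 2, 3 or 4 (-0.54 to -0.38). Adamtsl1 had 7.30, 5.58, 7.12, 12.8, 5.89 and 5.77 CPM in HF libraries 1 to 6, against 13.7, 7.81, 25.3, 14.5, 12 and 9.36 CPM in LF libraries 1 to 6, and its change (-0.89 ± 0.30, edgeR adjusted p = 0.0248) did not pass without LF library 3 or HF libraries 2 or 6 (-0.83 to -0.60). Adamts8 had 12.9 CPM in its highest LF library, a median of 1.19 CPM in LF and 0.438 to 1.75 CPM in HF; its change (-1.72 ± 0.67, edgeR adjusted p = 0.0482) did not pass without LF libraries 3 or 4 or HF libraries 1, 2, 4 or 6 (-1.74 to -0.55) and turned sign without the 6 libraries set apart (0.35). Adamts20 had 4.95 CPM in LF library 4, 0.0952 to 1.90 CPM in the other LF libraries and 0.0508 to 0.535 CPM in HF; its change (-2.68 ± 0.82, edgeR adjusted p = 0.0149) did not pass without LF library 4 (-1.61). The calls of Adamts5, Adamts15, Adamts17, Adamts20, Adamtsl1, Adamtsl3, Adamtsl5, Mmp17, Mmp27 and Timp2 also ended without the 6 libraries set apart, at 0.43, 0.81, 1.26, -1.42, -0.46, 0.32, 0.54, -0.48, 0.26 and 0.49. Adamts4, Adamts6, Adamts10, Adamts12, Adamts19 and Adamtsl4 did not pass, with group medians between 0.657 CPM (Adamts19 in HFLF) and 101 CPM (Adamts10 in HF).

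**Figure D3:**
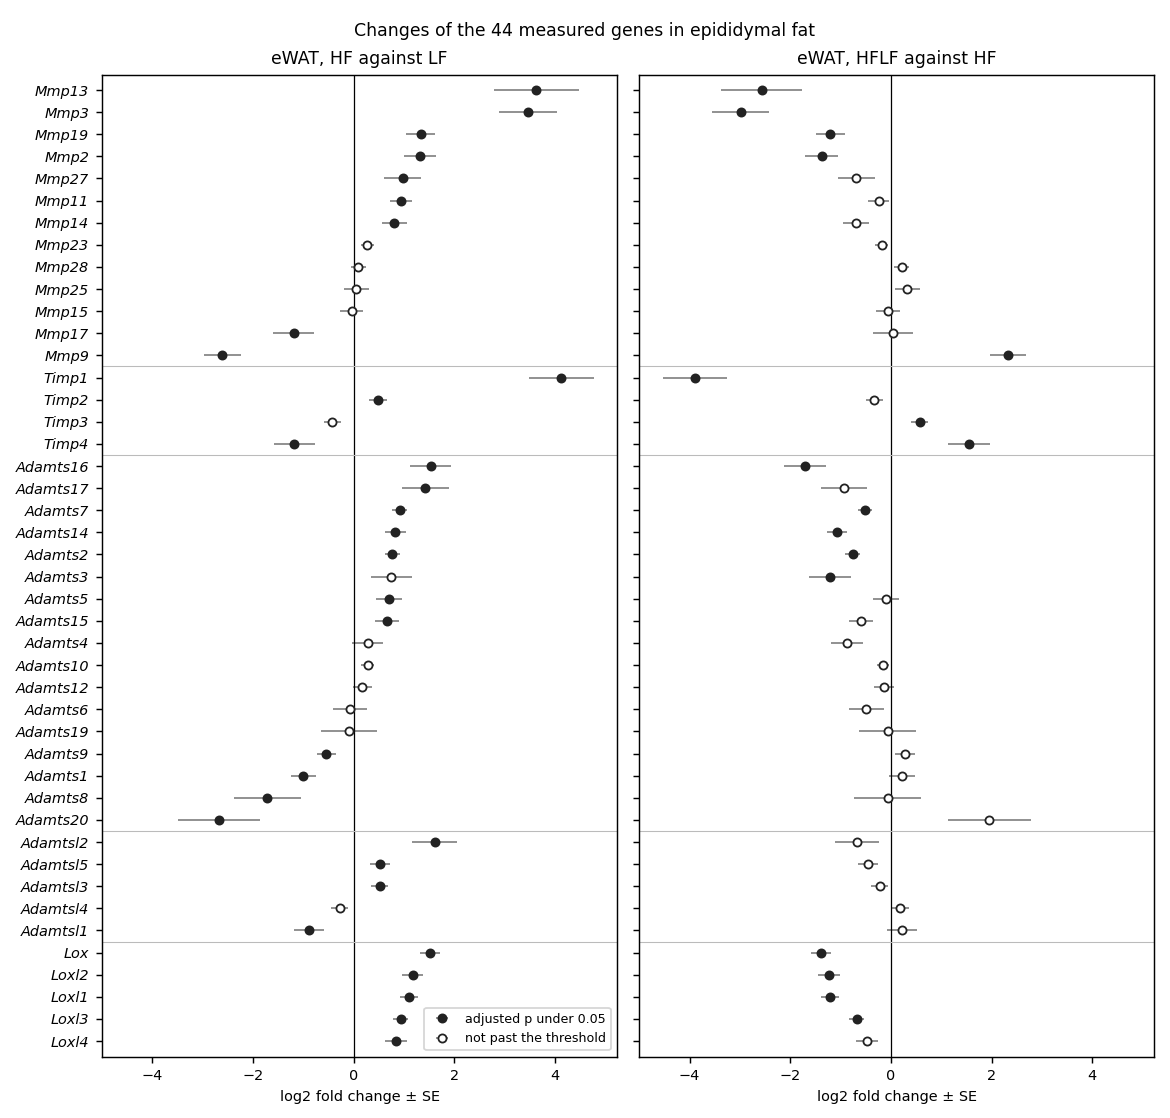
Log2 fold changes ± SE of the 44 genes measured in eWAT, HF against LF (left) and HFLF against HF (right), ordered within families by the left panel; filled points have an edgeR adjusted p under 0.05. On the left 24 filled points lie above 0 and 8 below, and on the right 3 above and 14 below. The HF group enters both panels, so opposite signs in the 2 panels are not independent.

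Marker genes of several cell types differed between the same libraries. The 6 macrophage markers, all measured and none at 0, summed to 3514, 2305, 5583, 3983, 1020 and 1300 CPM in HF libraries 1 to 6, to 757 to 2035 CPM in HFLF and to 456 to 860 CPM in LF. Timp1 put the HF libraries in the same order as this sum, from library 3 at the top through 4, 1, 2 and 6 to library 5. The 5 adipocyte markers summed to 14379, 20207, 9805, 13511, 26409 and 24187 CPM in HF libraries 1 to 6. This is exactly the reverse order, so the order of Timp1 is not particular to the macrophage markers. The adipocyte sums were 21147 to 27984 CPM in HFLF and 18062 to 31822 CPM in LF. The 7 fibroblast and adipose progenitor markers summed to 2254 to 3094 CPM in HF, 2071 to 2561 CPM in HFLF and 1480 to 2230 CPM in LF. The lowest HF sum lay just above the highest LF sum. Singly, 3 of these 7 were called higher in HF than in LF and 0 lower, 42.9% against 40.8% of all genes. Their median log2 change was 0.30, and 2 of the 7 had a negative value. Of the 5 smooth muscle and pericyte markers, 3 were called lower in HF than in LF and 0 higher. This is 60% called, against 40.8% of all genes (20.2% lower). Their median log2 change was -1.77, and whether it or the calls hold without LF library 3 was not tested. The 5 markers summed to 309 to 801 CPM in HF, 536 to 720 CPM in HFLF and 484 to 4150 CPM in LF. Every LF library but library 3 was at or below 901 CPM. The part of these shifts in the results on the proteases, inhibitors and lysyl oxidases was not tested.

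The return to the low-fat diet asked whether these levels stay changed. Against LF, HFLF eWAT had 0 of 44 genes called by edgeR (0.563% of all genes were called, 0.342% higher and 0.222% lower). At an unadjusted edgeR p under 0.05 there were 7 of the 44 genes and 3028 of all 16690 genes. DESeq2 called 1 of the 44, lower, and its share over all genes is not given here. The groups overlapped for each of the 44, where 2.56% of all genes did not overlap. Against HF, 3 of 44 genes were higher in HFLF and 14 lower, 38.6% against 25.4% of all genes (10.7% higher and 14.7% lower), and the median log2 change was -0.47. The groups did not overlap for 2 of the higher genes and 8 of the lower, where 9.44% of all genes did not. The comparison of HF with LF and that of HFLF with HF share the HF libraries, so each gene's values are set side by side without reading their agreement as a result.

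Timp1 had 1.03, 4.02, 1.79, 4.33, 1.82 and 1.90 CPM in HFLF libraries 1 to 6, below every HF library (HFLF against HF, -3.90 ± 0.64, edgeR adjusted p = 0.00108). Against LF, the HFLF value was 0.22 ± 0.61 (edgeR adjusted p = 0.874) and turned to -0.02 without HFLF library 4. Timp4 had 697, 551, 585, 427, 628 and 601 CPM in HFLF libraries 1 to 6, above every HF library (1.55 ± 0.41, edgeR adjusted p = 0.0123). Timp3 had 252 to 382 CPM in HFLF against 143 to 316 CPM in HF (0.57 ± 0.17, edgeR adjusted p = 0.0183). Without the 6 libraries set apart, neither Timp4 (1.53, edgeR adjusted p = 0.0751) nor Timp3 (0.35, edgeR adjusted p = 0.218) passed. Timp2 did not pass (-0.33 ± 0.17, edgeR adjusted p = 0.172).

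Mmp9 was higher in HFLF than in HF, with 21.0, 13, 17.4, 22.5, 26.5 and 8.95 CPM in HFLF libraries 1 to 6, all above the highest HF library at 7.30 CPM (2.32 ± 0.36, edgeR adjusted p = 0.000837). Mmp3 was lower, at 1.16 to 4.26 CPM in HFLF against 2.79 to 36.5 CPM in HF (-2.98 ± 0.56, edgeR adjusted p = 0.00218). Mmp2 was lower (-1.38 ± 0.32, edgeR adjusted p = 0.00636), at 49.0 to 92.5 CPM in HFLF against 70.9 to 329 CPM in HF, and Mmp19 was lower (-1.21 ± 0.29, edgeR adjusted p = 0.0068). Without the 6 libraries set apart Mmp2 stood at -1.40 (edgeR adjusted p = 0.0669) and Mmp19 at -1.17 (edgeR adjusted p = 0.0708). Mmp13 was lower (-2.57 ± 0.80, edgeR adjusted p = 0.026), with 0.138 to 1.29 CPM in HFLF against 0.558 to 6.08 CPM in HF; the call ended without HF library 3 or HFLF libraries 3, 4, 5 or 6 (-2.51 to -2.07), and without the 6 libraries set apart (-2.13, edgeR adjusted p = 0.162). Mmp14 just missed the threshold (-0.69 ± 0.25, edgeR adjusted p = 0.0503), and passed in DESeq2 and without HF libraries 2, 5 or 6 or HFLF libraries 2 or 4 (-0.82 to -0.77). Mmp11, at 18.6 to 42.0 CPM in HFLF, passed neither against HF (-0.24 ± 0.22, edgeR adjusted p = 0.439) nor against LF (0.70 ± 0.22, edgeR adjusted p = 0.125).

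Of the 5 lysyl oxidases, 4 were lower in HFLF than in HF. Lox had 54.2, 52.0, 48.9, 60.2, 54.2 and 44.9 CPM in HFLF libraries 1 to 6, a narrow range below every HF library (-1.39 ± 0.20, edgeR adjusted p = 0.000719). Loxl1 had 96.7, 106, 106, 109, 83.8 and 71.3 CPM in HFLF libraries 1 to 6, also below every HF library (-1.21 ± 0.18, edgeR adjusted p = 0.000812). Loxl2 had 26.4 to 35.2 CPM in HFLF against 48.2 to 132 CPM in HF (-1.24 ± 0.22, edgeR adjusted p = 0.00159). Loxl3 had 11.7 to 17.7 CPM in HFLF against 16.8 to 33.4 CPM in HF (-0.68 ± 0.15, edgeR adjusted p = 0.0048), and without the 6 libraries set apart it stood at -0.55 and did not pass (edgeR adjusted p = 0.0778). Loxl4 did not pass (-0.48 ± 0.23, edgeR adjusted p = 0.131). Against LF, Lox stood at 0.13 ± 0.20 and Loxl1 at -0.11 ± 0.18, and neither passed (edgeR adjusted p = 0.755 and 0.775).

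Adamts2, of the procollagen-processing enzymes, was lower in HFLF than in HF with no overlap, at 139 to 196 CPM in HFLF against 225 to 349 CPM in HF (-0.76 ± 0.14, edgeR adjusted p = 0.00207), and so was Adamts14, at 7.05 to 10.2 CPM in HFLF against 14 to 27.7 CPM in HF (-1.07 ± 0.20, edgeR adjusted p = 0.00215). Adamts3 was lower at under 1.5 CPM in both groups (-1.21 ± 0.41, edgeR adjusted p = 0.0411); the call ended without HF libraries 2, 3 or 4 or HFLF libraries 2, 3, 4 or 6 (-1.29 to -1.02), and without the 6 libraries set apart (-1.37, edgeR adjusted p = 0.117). Adamts16 was lower (-1.71 ± 0.42, edgeR adjusted p = 0.00762), with 0.767 to 1.58 CPM in HFLF against 2.39 to 5.99 CPM in HF. Adamts7 was lower by less (-0.51 ± 0.15, edgeR adjusted p = 0.0165), at 11.8 to 14.2 CPM in HFLF against 14.6 to 22.6 CPM in HF, and did not pass without the 6 libraries set apart (-0.46, edgeR adjusted p = 0.116). No ADAMTS-like gene passed.

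Other genes of matrix turnover in eWAT are given from 5 lists. The enzymes and helpers that process procollagen and prepare its crosslinks had 11 of 16 genes higher and 0 lower in HF than in LF, led by Plod1 (0.72 ± 0.08) and Colgalt1 (1.24 ± 0.14), which modify collagen lysines, and by Bmp1 (0.79 ± 0.10), which cuts the carboxy-terminal propeptide (edgeR adjusted p = 2.72e-05, 3.05e-05 and 4.46e-05). Other matrix-cutting proteases had 11 of 18 genes higher and 1 lower, among them the sheddases Adam12 (1.66 ± 0.19) and Adam9 (0.60 ± 0.08) and the lysosomal protease Ctss (3.65 ± 0.49) of antigen-presenting cells (edgeR adjusted p = 2.77e-05, 5.47e-05 and 6.42e-05). Proteoglycans had 7 of 10 higher and 0 lower, with Hspg2 (1.07 ± 0.16), Bgn (1.40 ± 0.23) and Lum (1.97 ± 0.32) in front (edgeR adjusted p = 9.49e-05, 0.000197 and 0.000199). Elastic fibre and microfibril genes had 7 of 16 higher and 0 lower, with Fbln2 (1.36 ± 0.22), Fbn1 (1.51 ± 0.27) and Fbln5 (0.71 ± 0.14) in front (edgeR adjusted p = 0.000205, 0.000459 and 0.000917). The protease activators and other inhibitors were mixed, with 5 of 18 higher and 2 lower in edgeR and 5 higher and 6 lower in DESeq2. The share called in the 5 lists, in this order, was 68.8%, 66.7%, 70%, 43.8% and 38.9%, against 40.8% of all genes, so the last 2 lie near that share. Their median log2 changes were 0.73, 0.88, 0.90, 0.56 and -0.13, against -0.02 for all genes. Dcn and Lum are also in the fibroblast marker list, whose sum was higher in HF.

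In HFLF against HF these lists, in the same order, had 11 of 16, 10 of 18, 5 of 10, 8 of 16 and 4 of 18 genes lower and none higher in edgeR. The share called was 68.8%, 55.6%, 50%, 50% and 22.2%, against 25.4% of all genes (14.7% lower). DESeq2 called 6 of 18 activators and inhibitors lower and 1 higher. Bmp1 (-0.70 ± 0.10), Adam12 (-1.23 ± 0.19), Bgn (-1.51 ± 0.23) and Fbn1 (-1.61 ± 0.27) had the smallest adjusted p of their lists (edgeR, 0.000648, 0.000807, 0.0008 and 0.00139). Against LF, HFLF had 0 genes called by edgeR in each list. At an unadjusted edgeR p under 0.05 there were 7 of 16, 10 of 18, 3 of 10, 1 of 16 and 5 of 18. Of all 16690 genes, 3028 were under that value. The median log2 changes of the lists were 0.12, 0.34, 0.10, -0.10 and -0.08, against -0.02 for all genes. DESeq2 called 2 genes in each of the lists of proteases and of activators and inhibitors, and its share over all genes is not given here. Leaving out the 6 libraries set apart moved the count of other proteases in HFLF against HF to 4, and that of activators and inhibitors to 2 there and to 4 in HF against LF. For that run the share of all genes called is not given here.

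In liver few of these genes differed. Between HF and LF, 2 of 31 genes were higher and 5 lower, 22.6% of those measured against 34.8% of all 14052 genes (16.3% higher and 18.5% lower), with a median log2 change of 0.15 against 0.00 for all genes. In liver Mmp9, Mmp28 and Adamtsl1 reached the level filter with fewer than 6 libraries outside their highest diet, so their presence already depends on a diet difference. Mmp9 had 0.460, 0.453, 0.250, 0.401, 0.408 and 0.357 CPM in HF livers 1 to 6, against 2.10, 1.15, 1.35, 1.42, 1.56 and 0.669 CPM in LF livers 1 to 6. It was the only one of the 31 whose groups did not overlap (11% of all genes did not), and it was lower in HF (-1.79 ± 0.35, edgeR adjusted p = 0.00123). It passed without any 1 library, but reached the level filter with no HF library, and without LF libraries 1 to 4 it stood at -1.49 (edgeR adjusted p = 0.114). The neutrophil marker was at most 1.56 CPM in HF, against its higher values in LF libraries 1 to 4, and its part in this result was not tested.

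Mmp14 had 46.9, 38.6, 31.3, 31.4, 38.2 and 45.3 CPM in HF livers 1 to 6, against 61.3, 62.4, 42.8, 54.4, 51.5 and 41.6 CPM in LF livers 1 to 6, lower in HF with overlap (-0.44 ± 0.11, edgeR adjusted p = 0.00636). Loxl4 had 1.24, 1.76, 0.939, 1.55, 2.04 and 1.01 CPM in HF livers 1 to 6, against 3.74, 2.58, 3.28, 3.97, 2.42 and 1.00 CPM in LF livers 1 to 6; apart from LF library 6 the groups were separate (-0.99 ± 0.30, edgeR adjusted p = 0.0157). Without LF libraries 1 to 4, Mmp14 stood at -0.27 (edgeR adjusted p = 0.28) and Loxl4 at -0.27 (edgeR adjusted p = 0.754). Mmp19 was higher in HF (0.32 ± 0.11, edgeR adjusted p = 0.0288), with 45.2, 58.9, 56.8, 53.4, 59.2 and 50.6 CPM in HF livers 1 to 6 against 40.8, 36.7, 51.4, 43.8, 44.9 and 41.5 CPM in LF livers 1 to 6. The call ended when any of LF libraries 1 and 2 and HF libraries 2, 3 and 5 was left out (0.28 to 0.31). Exons of Mmp19 overlap those of Tmem198b over 22.3% of their length.

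The ADAMTS calls in liver ended when single libraries were left out. Adamts4, an aggrecanase known to respond to inflammatory signals, had 1.38, 0.403, 0.313, 0.852, 0.408 and 0.179 CPM in HF livers 1 to 6, and 0.619, 0.503, 0.556, 0.300, 0.0735 and 0.633 CPM in HFLF livers 1 to 6, against 20.3, 4.46, 1.41, 1.02, 0.323 and 0.223 CPM in LF livers 1 to 6. It was lower in HF (-2.91 ± 0.90, edgeR adjusted p = 0.0194) and in HFLF (-3.33 ± 0.95, edgeR adjusted p = 0.0198) than in LF, did not pass without LF library 1 (-1.30 and -1.72), and had the opposite sign without LF libraries 1 to 4 (1.15 and 0.72). Adamts9 had 2.11, 1.41, 1.13, 1.70, 2.12 and 1.19 CPM in HF livers 1 to 6 and 0.493 to 2.35 CPM in HFLF, against 11.7, 5.75, 1.99, 2.27, 1.67 and 1.00 CPM in LF livers 1 to 6. It was lower in HF (-1.34 ± 0.50, edgeR adjusted p = 0.0468) and in HFLF (-1.44 ± 0.51, edgeR adjusted p = 0.0497), did not pass without LF libraries 1 or 2 or any library of the diet compared (-1.44 to -0.67 and -1.62 to -0.77), and had the opposite sign without LF libraries 1 to 4 (0.27 and 0.16). Adamts5 was higher in HF (1.02 ± 0.38, edgeR adjusted p = 0.0449), with 3.31, 2.02, 2.19, 2.66, 2.77 and 2.03 CPM in HF livers 1 to 6 against 1.28, 0.322, 1.17, 0.510, 3.28 and 0.837 CPM in LF livers 1 to 6. LF library 5 alone lay within the HF range, and the call ended without LF libraries 1, 2, 3, 4 or 6 or HF libraries 1 to 5 (0.81 to 1.07), and stood at 0.28 without LF libraries 1 to 4 (edgeR adjusted p = 0.744).

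**Figure D4:**
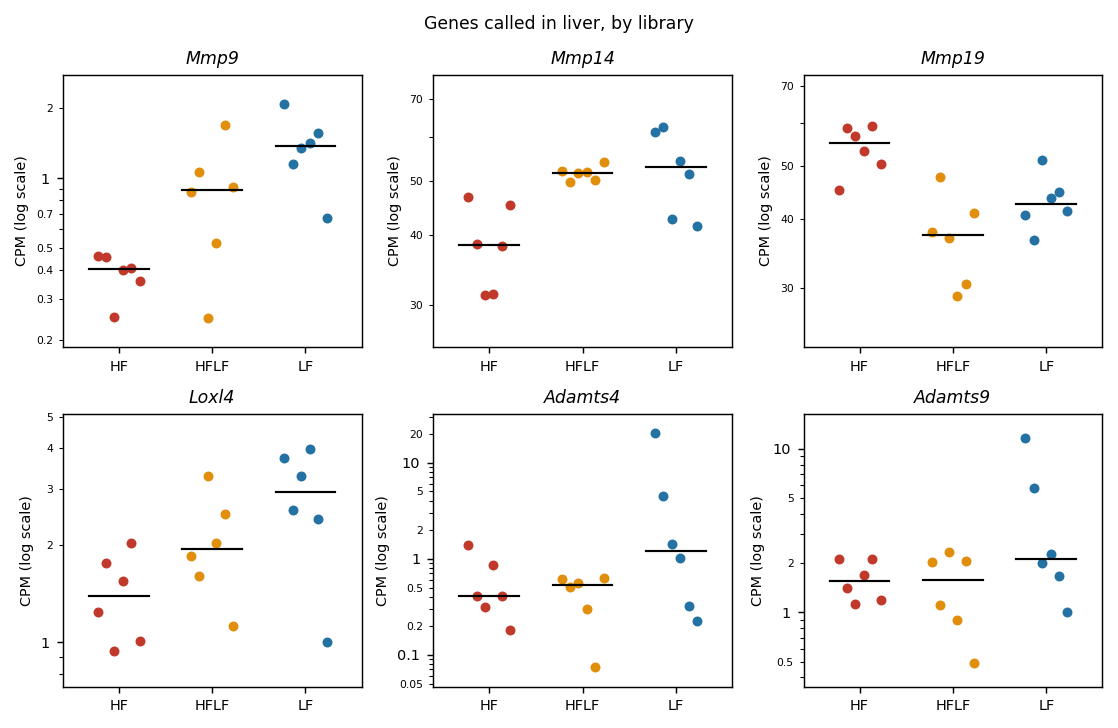
CPM on log scales for 6 genes called in liver, by diet; points are the 6 libraries of a diet (replicates 1 to 6 from left to right) and bars their medians. Mmp9 in HF lies at or below 0.460 CPM, under every LF library, while for Adamts4 and Adamts9 the LF group is stretched by libraries 1 and 2, at up to 20.3 and 11.7 CPM.

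Between HFLF and LF livers, 2 of 31 genes were higher and 2 lower, 12.9% against 22.6% of all genes (10.2% higher and 12.4% lower), and the groups overlapped for each of the 31, where 6.15% of all genes did not overlap. Besides Adamts4 and Adamts9, these were Adamts13, the protease that trims von Willebrand factor and is made by hepatic stellate cells, and Adamts10, a microfibril-associated enzyme. Adamts13 had 9.47, 7.35, 9.08, 6.38, 11.8 and 8.94 CPM in HFLF livers 1 to 6, against 5.17, 3.96, 4.86, 5.61, 8.77 and 5.97 CPM in LF livers 1 to 6 (0.63 ± 0.19, edgeR adjusted p = 0.0253), and did not pass without LF libraries 1 or 2 or HFLF library 5 (0.53 to 0.60). Adamts10 had 18.8, 17.8, 25.8, 18.3, 23.9 and 15.1 CPM in HFLF livers 1 to 6, against 15.3, 12.8, 16.7, 15.3, 18.1 and 12.3 CPM in LF livers 1 to 6 (0.40 ± 0.13, edgeR adjusted p = 0.0326), and did not pass without LF libraries 1, 2, 4 or 6 or HFLF libraries 3 or 5 (0.32 to 0.41). The 7 stellate cell markers summed to 291 to 477 CPM in HFLF and to 220 to 455 CPM in LF livers. Singly, 2 of the 7 were called higher in HFLF and 0 lower, 28.6% against 22.6% of all genes. Their median log2 change was 0.39, and their part in the Adamts13 result was not tested. Without LF libraries 1 to 4, Adamts13 stood at 0.26 and Adamts10 at 0.40 (edgeR adjusted p = 0.663 and 0.374), Mmp19 in HF against LF at 0.32 (edgeR adjusted p = 0.263), and none of the 31 genes was called by edgeR in HF or in HFLF against LF. The share of all genes called in that run is not given here, so the count is not read as particular to these genes.

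Between HFLF and HF livers, 1 of 31 genes was higher and 1 lower, 6.45% against 5.23% of all genes (2.18% higher and 3.05% lower). Mmp14 had 52.0, 49.8, 51.6, 51.8, 50.3 and 54.0 CPM in HFLF livers 1 to 6, a narrow band above every HF liver (0.42 ± 0.11, edgeR adjusted p = 0.0389), where 3.86% of all genes did not overlap. The call ended without HF libraries 2, 3 or 4 or HFLF libraries 1, 3, 4, 5 or 6 (0.36 to 0.43). Mmp19 had 37.9, 47.7, 36.9, 29.0, 30.5 and 41.1 CPM in HFLF livers 1 to 6, lower than in HF (-0.54 ± 0.11, edgeR adjusted p = 0.0128), and this call held without any 1 library. Mmp9 did not pass (1.16 ± 0.37, edgeR adjusted p = 0.071), with 0.867, 1.06, 0.247, 0.526, 1.69 and 0.915 CPM in HFLF livers 1 to 6; it passed without HFLF library 3 (1.35). The LF libraries enter these tests through the spread that the 3 diets share, the scaling factors and the level filter.

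Neither liver TIMP passed in any comparison. Timp2 had 27.9, 16.5, 11.6, 19.2, 21.1 and 12.6 CPM in HF livers 1 to 6, 17.6, 14.6, 20.4, 17.9, 23.7 and 16.7 CPM in HFLF livers 1 to 6, and 20.0, 12.1, 14, 14, 30.9 and 10.9 CPM in LF livers 1 to 6. Timp3 had 8.70 to 18.4 CPM in HF, 11.9 to 19 CPM in HFLF and 9.65 to 14.7 CPM in LF livers, with HF library 1 the highest of its group. Mmp2 had 2.07 to 7.40 CPM in HF, 2.77 to 6.47 CPM in HFLF and 1.56 to 6.19 CPM in LF livers, and Loxl1 had 2.07 to 6.07 CPM in HF, 1.83 to 6.61 CPM in HFLF and 1.39 to 5.75 CPM in LF livers. Those ranges overlap throughout. The remaining liver genes (Adamts1, Adamts2, Adamts6, Adamts7, Adamts14, Adamts15, Adamtsl1, Adamtsl2, Adamtsl4, Adamtsl5, Loxl2, Loxl3, Mmp11, Mmp15, Mmp17, Mmp23, Mmp27 and Mmp28) were not called in any of the 3 comparisons, with group medians between 0.315 CPM (Mmp28 in LF) and 90.4 CPM (Mmp15 in HF). Of the procollagen-processing list, 5 of 14 genes were lower in HF than in LF liver and none higher (35.7% called, against 34.8% of all genes), among them P4ha1 (-1.07 ± 0.19, edgeR adjusted p = 0.000809), a subunit of the prolyl hydroxylase that stabilises the collagen helix, and Plod3 (-0.37 ± 0.07, edgeR adjusted p = 0.000647). In the other lists 3 of 18 activators and inhibitors were higher and 4 lower (38.9% called), 1 of 16 other proteases higher and 4 lower (31.2% called), and 1 each of 7 proteoglycan and 13 elastic fibre genes higher (14.3% and 7.69% called). Without LF libraries 1 to 4, 1 gene of the procollagen list and 1 activator or inhibitor were called and 0 in the other lists, and Plod3 was not called (-0.32, edgeR adjusted p = 0.0606). For that run the share of all genes called is not given here.

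Whether the diets acted differently in the 2 tissues was tested as an interaction over the 13206 genes measured in both. For HF against LF, the log2 change in eWAT minus that in liver was called above 0 for 6 of the 30 shared genes and below 0 for 3, 30% against 45.6% of all genes (21% above and 24.6% below). The sign of this difference does not say in which tissue the change was larger in size. Loxl4 differed most by adjusted p: it was higher in HF eWAT and lower in HF liver (difference of log2 changes 1.78 ± 0.38, edgeR adjusted p = 0.000356). Mmp14 showed the same opposition, 0.81 in eWAT and -0.44 in liver (1.19 ± 0.28, edgeR adjusted p = 0.00114). Adamts7 was higher in HF eWAT and stood at -0.20 ± 0.25 in liver (edgeR adjusted p = 0.565), where it had 9.14, 8.67, 8.26, 6.86, 12.4 and 8.40 CPM in HF livers 1 to 6 and 11.2, 8.65, 4.51, 6.69, 9.95 and 20.5 CPM in LF livers 1 to 6; the difference was 1.06 ± 0.30 (edgeR adjusted p = 0.00517). Mmp19 was higher in HF in both tissues and more so in eWAT (0.96 ± 0.31, edgeR adjusted p = 0.0129). The differences of these 4 held without any 1 library, but without the 4 liver and 6 eWAT libraries set apart Loxl4 stood at 1.29 (edgeR adjusted p = 0.0524), Mmp14 at 1.14 (edgeR adjusted p = 0.052) and Mmp19 at 0.86 (edgeR adjusted p = 0.18).

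The other 5 called differences ended when single libraries were left out. Adamts4 (3.12 ± 0.91, edgeR adjusted p = 0.00593) did not pass without liver LF library 1 (1.51) and had the opposite sign without the 10 libraries set apart (-0.77); in eWAT it stood at 0.28 ± 0.31. Adamts14 (0.77 ± 0.28, edgeR adjusted p = 0.0264) did not pass without liver LF library 1 or eWAT HF libraries 3 or 4 (0.61 to 0.70). Of the 3 with a difference below 0, Adamtsl1 stood at -0.89 in eWAT and 0.53 in liver. In liver it had only 0.170 to 1.55 CPM and passed 0.5 CPM in 4 HF, 3 HFLF and 2 LF libraries. Its presence among the genes measured in both tissues thus already depends on a diet difference in liver. Its difference (-1.47 ± 0.55, edgeR adjusted p = 0.0281) did not pass without liver LF libraries 2 or 4, liver HF library 5 or eWAT LF library 3 (-1.33 to -1.20). Adamtsl4 had 36.6, 71.4, 35.8, 37.0, 66.0 and 52.2 CPM in HF eWAT libraries 1 to 6 against 63.8, 60.8, 47.6, 50.2, 76.0 and 62.4 CPM in LF eWAT libraries 1 to 6. In liver it had 4.82 to 8.68 CPM in HF and 3.57 to 7.05 CPM in LF. Its difference (-0.70 ± 0.27, edgeR adjusted p = 0.0306) did not pass without liver LF library 3, liver HF library 1, eWAT LF library 5 or eWAT HF libraries 1, 3 or 4 (-0.63 to -0.59). Mmp17 stood at -1.20 in eWAT and 0.11 in liver, where it had only 0.857 to 1.37 CPM in HF and 0.558 to 2.05 CPM in LF. Its difference (-1.35 ± 0.54, edgeR adjusted p = 0.0409) did not pass without liver LF libraries 2, 3, 4 or 6, liver HF libraries 1, 3, 4 or 6, eWAT LF library 3 or eWAT HF libraries 1, 2 or 4 (-1.36 to -0.65). Without the 10 libraries set apart, Adamts14 (0.95), Adamtsl1 (-0.43), Adamtsl4 (-0.42) and Mmp17 (-0.87) did not pass (edgeR adjusted p = 0.0714, 0.69, 0.428 and 0.212). Mmp9 was lower in HF in both tissues, and the difference between them did not pass (-0.87 ± 0.54, edgeR adjusted p = 0.188). In liver it passed 0.5 CPM in 0 HF, 5 HFLF and 6 LF libraries, so its presence there already depends on a diet difference.

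**Figure D5:**
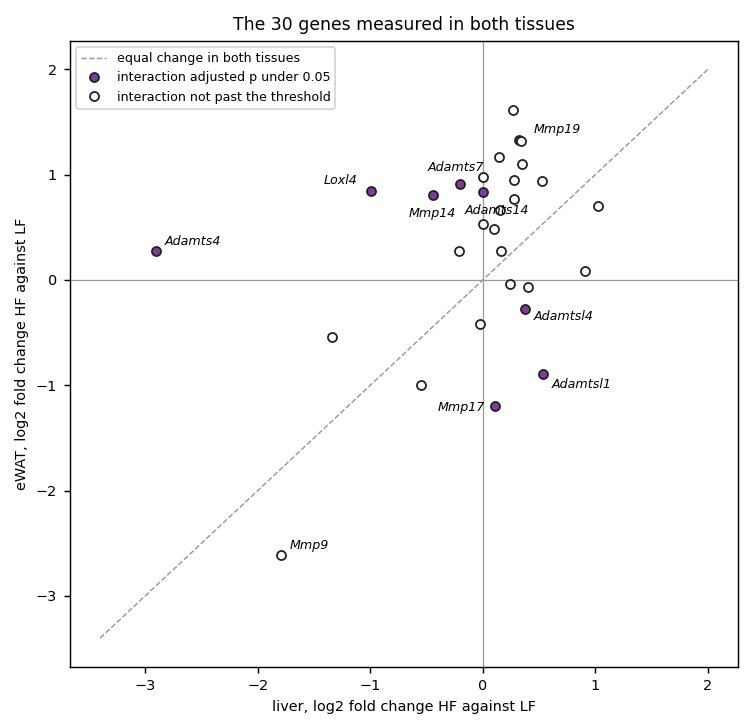
Log2 fold change of HF against LF in liver (horizontal axis) and eWAT (vertical axis) for the 30 genes measured in both; filled points passed the interaction test and the dashed line marks equal change. Loxl4 and Mmp14 lie above 0 in eWAT and below 0 in liver, and Mmp9 lies below 0 in both, at -2.61 in eWAT and -1.79 in liver. The presence of Mmp9 among the genes measured in liver already depends on a diet difference.

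For HFLF against HF, the log2 change in eWAT minus that in liver was called above 0 for none of the 30 genes and below 0 for 2, 6.67% against 18% of all genes (8.78% above and 9.18% below). Mmp14 was higher in HFLF than in HF in liver and not in eWAT (difference of log2 changes -1.10 ± 0.28, edgeR adjusted p = 0.00875), and this held without any 1 library. Adamts14 was lower in HFLF eWAT and stood at -0.24 ± 0.20 in HFLF liver (-0.81 ± 0.29, edgeR adjusted p = 0.045). In liver it had 2.44 to 4.01 CPM in HF, 1.88 to 3.60 CPM in HFLF and 1.78 to 3.68 CPM in LF. It did not pass without liver HF libraries 2, 3, 5 or 6, liver HFLF libraries 1, 2 or 5, eWAT HF libraries 3 or 4 or eWAT HFLF libraries 1, 5 or 6 (-0.83 to -0.65). This comparison and that of HF with LF share the HF libraries of both tissues.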

How the data were processed

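RNA was extracted with TRI reagent and sequenced on an Illumina NovaSeq, per the labels' protocols. The deposited tables hold raw counts per gene, made by the authors with STAR and the GRCm38.p6 genome per the submitters' processing notes; no source used here gives the counting tool, strand or annotation. Every gene in a table has over 0.5 CPM in 6 or more of that tissue's 18 libraries, the authors' filter as tested on the values. From those counts, TMM-scaled CPM and fold changes were computed with edgeR 4.0.16 (quasi-likelihood, robust, 3 diets, no covariate; R 4.3.3) and p-values adjusted by Benjamini-Hochberg over all genes of a table. The difference between tissues was an interaction over the 36 libraries. Symbols and exon lengths came from the mouse annotation of GRCm38 and promoters from RefSeq. One gene that the naming pattern would take is not reported here. The genes and lists were chosen with earlier results of these data known. For most groups, values in every library or their range were given for the TIMPs, Mmp2, Mmp14, Lox and Loxl1. The same was done for up to 4 called genes higher and 4 lower with the smallest adjusted p per comparison. It was also done for up to 3 genes of each sign per interaction. Up to 3 genes were named per list. Mmp3, Mmp13 and the genes listed by the libraries their calls need were chosen after their values were seen. Alternatives were DESeq2 1.42.0, other scaling factors, a filter at 10 counts, a replicate block, each library left out, and the libraries set apart left out. The block was the replicate number within a tissue, and diet and number together for the tissue differences. The code was tested on simulated counts. Depth was 8.942 to 31.19 M counts per library, so genes under about 1 CPM rest on few counts.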

Additional observations from a re-analysis of the deposited data

Results flagged for a closer look

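Of 117 groups of 6 libraries, 14 held 1 library whose distance to its nearest neighbour was large for the group's range by Dixon's 95% value; chance gives about 1 in 20 such groups. In eWAT, these were Timp1 in HF library 3 (125 CPM, others 7.51 to 40.5), Adamtsl1 in HF library 4 (12.8, others 5.58 to 7.30), Timp2 in HFLF library 2 (805, others 457 to 580) and Mmp13 in HFLF library 2 (1.29, others 0.138 to 0.456). In LF eWAT they were Adamts1 in library 2 (211, others 56.0 to 113), Mmp17 in library 3 (22.8, others 2.91 to 5.98), Adamts20 in library 4 (4.95, others 0.0952 to 1.90) and Mmp14 in library 6, the lowest of its group (57.4, others 91.8 to 103). In liver they were Timp3 in HF library 1 (18.4, others 8.70 to 12.2), Adamtsl1 in HF library 5 (1.55, others 0.453 to 0.827), Loxl1 in HFLF library 5 (6.61, others 1.83 to 3.34), Adamts4 in LF library 1 (20.3, others 0.223 to 4.46), Adamts5 in LF library 5 (3.28, others 0.322 to 1.28) and Adamts14 in LF library 6, the lowest (1.78, others 2.99 to 3.68), all in CPM.

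The change in HF against LF differed between eWAT and liver by the interaction test for 9 genes, given as the eWAT minus the liver log2 change: Loxl4 1.78, Mmp14 1.19, Adamts7 1.06, Adamts4 3.12, Mmp19 0.96, Adamts14 0.77, Adamtsl1 -1.47, Adamtsl4 -0.70 and Mmp17 -1.35. For HFLF against HF it differed for Mmp14 (-1.10) and Adamts14 (-0.81).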

How the results depend on the processing

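The counts that follow are of the genes of this report, and the share of all genes called in each run is not given here. Without liver LF libraries 1 to 4, which leaves LF libraries 5 and 6, 0 genes were called in HF and 0 in HFLF against LF. The part of the smaller groups in the lost calls was not tested. Without the 6 eWAT libraries set apart, 16 genes were called in HF against LF and 10 in HFLF against HF, and without all 10 libraries 3 tissue differences for HF against LF. DESeq2 called 1 gene in HFLF against LF eWAT. Tissue differences for HFLF against HF numbered 1 with upper-quartile factors and 1 under a block. For tissue differences the block joined the liver and eWAT libraries of the same diet and number, as if from the same animal. Within a tissue it joined the libraries of the same number across diets. Leaving out each library gave 22 to 33 calls in eWAT for HF against LF, 15 to 20 for HFLF against HF and 0 to 0 for HFLF against LF; 3 to 10, 1 to 2 and 0 to 7 in liver for HF against LF, HFLF against HF and HFLF against LF; and 7 to 11 and 1 to 4 tissue differences for HF against LF and HFLF against HF. Of the genes called, 18 of 32 and 15 of 17 kept their call in every such run in eWAT (HF against LF, HFLF against HF), and 3 of 7, 1 of 2 and 0 of 4 in liver (HF against LF, HFLF against HF, HFLF against LF).

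Signs turned without the 6 eWAT libraries for Adamts8 (HF against LF, 0.35) and Mmp9 (HFLF against LF, 0.046), and without all 10 for the tissue difference of Adamts4 (-0.77). Without liver LF libraries 1 to 4 they turned for Adamts1 (0.48), Adamts4 (1.15), Adamts9 (0.27) and Adamtsl1 (-0.025) in HF against LF, and for Adamts4 (0.72), Adamts9 (0.16) and Mmp14 (0.15) in HFLF against LF. An uncalled value near 0 turned for Mmp14 in HFLF against LF liver with upper-quartile factors (0.047). They turned when single libraries were left out for Mmp14 in HFLF against LF liver (-0.079 to 0.036 over the libraries), Timp1 in HFLF against LF eWAT (-0.019 to 0.36), and in HF against LF liver Adamts14 (-0.11 to 0.074), Adamts7 (-0.35 to 0.12) and Mmp17 (-0.015 to 0.42). The cause was not tested. With upper-quartile factors the split of all genes called was 2952 higher and 1869 lower in liver HF against LF, 1866 and 1158 in HFLF against LF, 3051 and 3911 in eWAT HF against LF, 2352 and 2033 in HFLF against HF, and 2325 and 3757, and 1472 and 961, for the tissue differences. Same-numbered libraries correlated over 0.1 in 1 to 3 of 6 pairs, and correlated best with their own number in 0 to 2 of 6 cases within a tissue and 3 to 5 of 6 between tissues. With no label on what a number marks, the libraries were not treated as paired in the main fits. The replicate block gave 28 calls in eWAT HF against LF, 17 in HFLF against HF and 0 in HFLF against LF, and in liver 8 for HF against LF, 2 for HFLF against HF and 4 for HFLF against LF, and 8 tissue differences for HF against LF. Under the block Timp2 (0.45), Mmp17 (-0.93), Mmp27 (0.95), Adamts8 (-1.17), Adamts20 (-2.05) and Adamtsl5 (0.50) lost their calls and Timp3 gained one (-0.47) in eWAT HF against LF. Mmp13 (-2.53) and Adamts3 (-1.24) lost and Mmp14 gained (-0.62) in HFLF against HF. Liver Adamts9 lost its calls in HF and HFLF against LF (-1.03 and -1.21), and calls were also lost for the tissue differences of Adamts4 (1.86), Mmp17 (-1.10) and Adamts14 in HFLF against HF (-0.76). Depth limits the genes under 1 CPM, such as Mmp9 and Adamts4 in liver and Mmp13 in eWAT.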
